A study of Saccharomyces cerevisiae with 7 samples.

Results

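The ribosomal DNA (rDNA) of budding yeast is a tandem array of repeats on the right arm of chromosome XII, of which the reference assembly R64 (sacCer3) shows 2. The measurements described here are the RNA polymerase II (RNAPII) ChIP-seq windows centred between positions 451001 and 469000 of chromosome XII, 358 of the 228888 windows on the 15 chromosomes analysed. They were chosen by position alone and divided with the R64 annotation into 274 windows of the 35S precursor, 4 of the 5S genes, 30 of the NTS1 spacer and 50 of the NTS2 spacer. A window belonged to the element that held its centre, and 2 windows were absent, between the starts 451201 and 451351.

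Each repeat holds a 35S unit, which RNA polymerase I transcribes into one precursor that is cut into the 18S, 5.8S and 25S ribosomal RNAs, and a 5S gene, which RNA polymerase III transcribes from the other strand. The spacers between them hold no rRNA: NTS1 lies between the 3′ end of the 35S unit and the 5S gene and contains the replication fork barrier bound by Fob1 and the RNAPII promoter E-pro, and NTS2 lies between the 5S gene and the 35S start and contains a replication origin and another RNAPII promoter, C-pro. RNAPII transcription of the repeats is known to be repressed by Sir2, the histone deacetylase of rDNA silencing, and the noncoding transcripts that escape are substrates of the nuclear exosome.

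The study followed RNAPII in 3 genotypes of *Saccharomyces cerevisiae*: WT, *rtt109Δ*, which lacks the acetyltransferase for lysine 56 of histone H3, and *rrp6Δ*, a strain without Rrp6, a 3′ nuclease of the nuclear exosome. All were asynchronous log-phase cultures in rich medium with 2% glucose at 30°C, crosslinked with 1% formaldehyde and fragmented with micrococcal nuclease, and RNAPII was pulled down with the antibody 8WG16, which binds the repeated tail (C-terminal domain) of its largest subunit. The labels list 2 IP libraries for each genotype and 1 input, from the W303 strain. The deposited values are 1 track per genotype, so no spread between replicates can be given and no test was made: every difference below is a description of these tracks.

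Each value is a ratio of IP to input in a window of 100 bp, placed every 50 bp, and the median window of each track is exactly 1. The same W303 input divided all 3 tracks. A strain that carried more rDNA repeats than the input strain would therefore have a higher ratio over the array, and repeat number and RNAPII per repeat cannot be told apart in these values. If reads from every repeat of the array were placed on the annotated copies, a value is a mean over repeats. How such reads were handled is not given. The signal of each deleted gene was low in its own strain: RTT109 averaged 1.36 in WT and 0.018 in *rtt109Δ*, and RRP6 averaged 1.01 in WT and 0.118 in *rrp6Δ*. Over all windows the middle 90% of log2 ratios to WT ran from -0.72 to 0.70 in *rtt109Δ* and from -0.58 to 0.52 in *rrp6Δ*.

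RNAPII signal over the rDNA was higher in *rtt109Δ* than in WT across the whole of both repeats, by a median of 2.68-fold, and differed little between *rrp6Δ* and WT, by a median of 1.06-fold. Averaged over the 358 windows, WT had 0.981, *rrp6Δ* 1.08 and *rtt109Δ* 2.44. In *rtt109Δ*, 352 windows lay more than 1.3-fold above WT and 1 lay more than 1.3-fold below, whereas 17.5% of all windows lay above and 19.4% below by that limit. More than 2-fold above WT were 335 rDNA windows (93.6%), against 1.31% of all windows. In *rrp6Δ*, 36 rDNA windows (10.1%) lay more than 1.3-fold above WT and 8 (2.23%) lay below, against 11% and 13.8% of all windows. The share above WT in *rrp6Δ* was thus near that of all windows, whereas the share below was smaller, and 0 rDNA windows passed 2-fold.

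**Figure D1:**
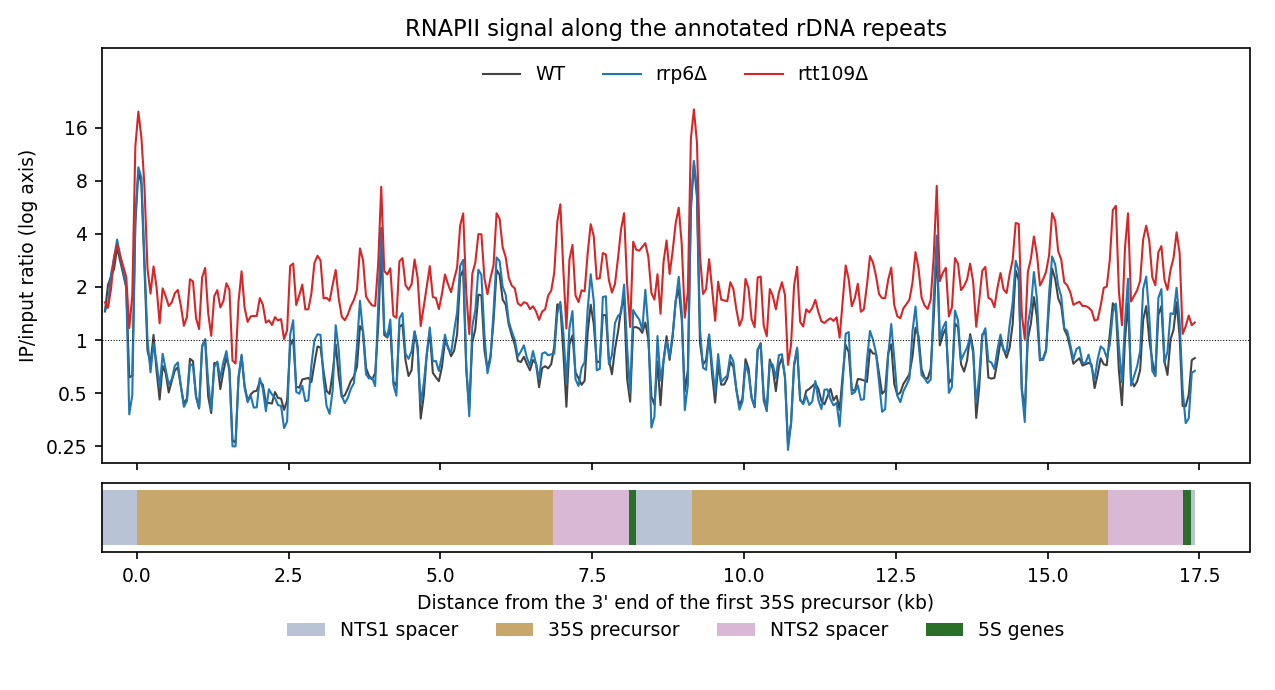
IP/input ratio of RNAPII (log axis) in each 100-bp window along the annotated repeats for WT, *rrp6Δ* and *rtt109Δ*, against distance from the 3′ end of the first 35S precursor in kb, with the elements drawn below to scale. The *rtt109Δ* line runs above the other two from the first 35S unit to the second 5S gene, while the *rrp6Δ* line follows WT, with means of 2.44, 1.08 and 0.981 for *rtt109Δ*, *rrp6Δ* and WT.

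The rDNA stood apart from stretches of the same size elsewhere. The rest of the 15 chromosomes was divided into blocks of 18 kb, and the 636 blocks with at least 300 windows were kept, which left out 19 blocks with 2559 windows. Against these the rDNA had the highest median log2 ratio in *rtt109Δ*, 1.42. The next block had 0.55 and adjoined it (chromosome XII, 468001 to 486000, without the rDNA windows described here). That block still held the 5S genes RDN5-3, RDN5-4 and RDN5-5, with log2 ratios of 1.34, 1.64 and 1.78 in *rtt109Δ*. The middle 90% of blocks lay between -0.21 and 0.21. In *rrp6Δ* the rDNA ranked 33rd, with a median of 0.08 that lay at the upper end of the middle 90% of blocks, from -0.11 to 0.08, and under the highest block, 0.22. By level, the rDNA was among the lowest blocks in WT, ranking 621st with a mean ratio of 0.981 against a median block of 1.23. In *rtt109Δ* it had the highest mean among these blocks, 2.44, and the next block had 1.89.

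Genome-wide, windows with little RNAPII in WT had higher log2 ratios in *rtt109Δ* than windows with much, so the rDNA was also compared with other windows of like WT ratio. The 347 rDNA windows between the start of RDN37-1 on the map and the end of RDN5-2 were used. Where WT was at or below 0.5, the median log2 ratio was 1.49 in 54 rDNA windows and 0.47 in all others. For WT between 0.5 and 1 it was 1.44 in 199 rDNA windows and 0.14 in the others, and for WT between 1 and 2 it was 1.3 in 78 rDNA windows and -0.15 in the others. The 11 rDNA windows with WT between 2 and 4 had a median of 1.07, against -0.38, and the 5 above 4 had 1.03, against -0.57. In all 5 classes the rDNA median exceeded the value below which 95% of the other windows of that class lay, with the smallest gap in the lowest class, 1.49 against 1.15. Within the rDNA, too, the log2 ratio was lower where WT was higher. WT is the denominator of these ratios, so windows chosen for a high WT value tend to have lower ones.

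The 35S precursor, transcribed by RNA polymerase I from the lower strand of the map, covers 6858 bp of each repeat (RDN37-1, chromosome XII 451575 to 458432, and RDN37-2, 460712 to 467569). It averaged 0.928 in WT (percentile 44.0 of all windows), 1.01 in *rrp6Δ* (percentile 50.5) and 2.27 in *rtt109Δ* (percentile 94.7). Its median window was lower: 0.705 in WT (percentile 23.7), 0.756 in *rrp6Δ* (percentile 30.3) and 1.82 in *rtt109Δ* (percentile 89.9). In WT 58 of the 274 windows had a ratio above 1. Compared with WT, *rtt109Δ* had a median log2 ratio of 1.40, or 2.64-fold, with the middle 50% of the windows between 1.24 and 1.49. All 274 windows lay more than 1.3-fold above WT and 260 more than 2-fold, and 99.8% of all windows of the genome lay below the 35S median. In *rrp6Δ* the median was 0.07, with 17 windows (6.20%) more than 1.3-fold above WT and 4 (1.46%) below. The shares of all windows were 11% and 13.8%.

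Within the precursor the mature 25S sequence had the least RNAPII in WT and the external spacer at the 3′ end had the most. The 25S (136 windows over both copies), the RNA of the large subunit, averaged 0.611 for WT, 0.620 for *rrp6Δ* and 1.71 for *rtt109Δ*. The 18S (72 windows), the RNA of the small subunit, averaged 1.11, 1.28 and 2.56 in the same order. The 5′ external transcribed spacer (28 windows), the leader that is removed first, averaged 0.756, 0.836 and 1.64. The internal spacers, which separate the mature RNAs and are also removed, averaged 1.27, 1.43 and 2.91 for ITS1 (14 windows) and 0.869, 0.981 and 2.26 for ITS2 (10 windows). The 5.8S (6 windows), the short partner of the 25S, averaged 0.843, 0.934 and 2.00. Thus the order of the parts by level was the same in WT and *rrp6Δ*, and the 25S and 5′ external spacer were exchanged at the bottom in *rtt109Δ*.

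The excess in *rtt109Δ* was smallest at the start of the precursor and larger toward its end. The median log2 ratio was 1.07 over the 5′ external spacer, 1.27 over the 18S, 1.21 over ITS1, 1.28 over the 5.8S, 1.37 over ITS2, 1.48 over the 25S and 1.23 over the 3′ external spacer. By distance from the 35S start, the first kb had 1.06 in copy 1 and 1.05 in copy 2, and the kb from 4 to 5 had 1.47 in both. In *rrp6Δ* the medians did not rise along the precursor but were lowest in its middle and over the 25S. Its median log2 ratio was 0.15 over the 5′ external spacer, 0.19 over the 18S and 0.11 over ITS1. It was -0.02 over the 5.8S, -0.03 over ITS2, -0.02 over the 25S and 0.13 over the 3′ external spacer. Above WT by any amount were 59 of the 72 windows of the 18S and 63 of the 136 of the 25S. On chromosome XII outside the rDNA windows, 10376 of 20969 lay above WT by any amount in *rrp6Δ*. The 25S to 18S order of these log2 ratios therefore ran in opposite directions in the 2 mutants, in both copies. The 18S difference in *rrp6Δ* is a change of 1.14-fold that no replicate error can be set against. The 18S also had the higher WT mean, 1.11 against 0.611 for the 25S. Whether the order goes with position or with WT level was not tested.

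**Figure D2:**
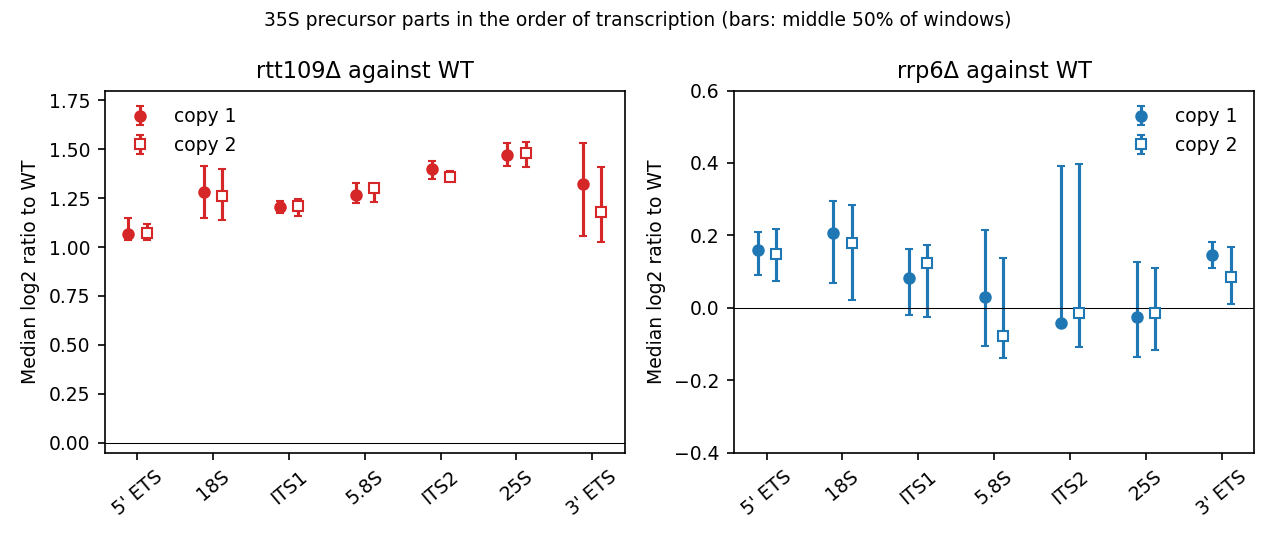
Median log2 ratio to WT of the 7 parts of the 35S precursor in the order of transcription, for *rtt109Δ* (left) and *rrp6Δ* (right, with a different vertical scale), with filled circles for copy 1, open squares for copy 2 and bars over the middle 50% of windows. The *rtt109Δ* medians go from 1.07 at the 5′ external spacer to 1.48 at the 25S, and those of *rrp6Δ* from 0.15 to -0.02. At the 3′ external spacer the medians over both copies are 1.23 in *rtt109Δ* and 0.13 in *rrp6Δ*.

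The highest RNAPII signal of the repeat was a narrow peak over the 3′ end of the 35S precursor. In copy 1 the window 451551 to 451650 reached 9.06 in WT, 19.7 in *rtt109Δ* and 9.53 in *rrp6Δ*. In copy 2 the window 460701 to 460800 had 10.1, 20.3 and 10.3. These were the second highest and the highest of all 228888 windows in *rtt109Δ*, whereas they ranked 156 and 81 in WT and 102 and 56 in *rrp6Δ*. The peak lay over the last bases of the precursor and fell away on both sides: the window centred 75 bp into the NTS1 spacer had 0.629 in WT and 1.79 in *rtt109Δ* in copy 1, and the one 62 bp into it had 0.673 and 1.87 in copy 2. Relative to WT the peak was 2.17-fold in copy 1 and 2.01-fold in copy 2 in *rtt109Δ*, less than the median of the precursor. The lowest log2 ratio of the precursor in copy 1, 0.87, was in the next window into the precursor, 451601 to 451700, where WT had 7.66 and *rtt109Δ* 14.0.

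**Figure D3:**
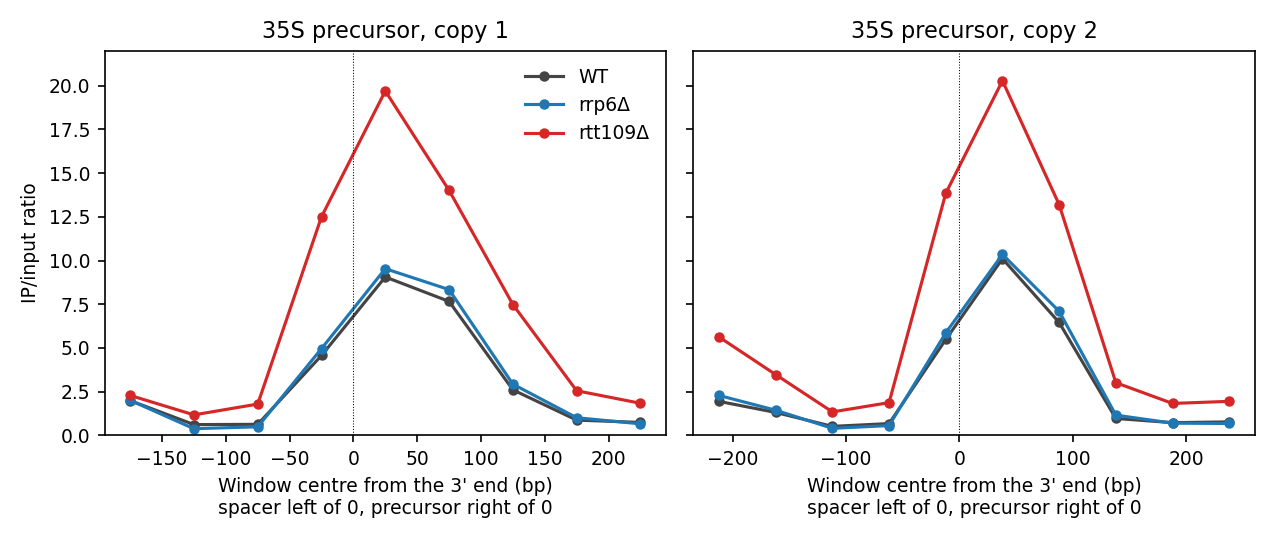
IP/input ratio (linear axis) against the distance of the window centre from the 3′ end of the 35S precursor in bp, for copy 1 (left) and copy 2 (right), with 1 point per window for each of the 3 tracks. The peak reaches 19.7 and 20.3 in *rtt109Δ*, 9.06 and 10.1 in WT and 9.53 and 10.3 in *rrp6Δ*, and all 3 tracks are low again within 75 bp on the spacer side.

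Smaller peaks inside the precursor occurred in the same places in all 3 tracks. A window at the junction of the 5.8S and ITS1 (455551 to 455650 in copy 1) had ratios of 3.30, 4.32 and 7.39 in WT, *rrp6Δ* and *rtt109Δ*, and the matching window of copy 2 (464701 to 464800) had 3.37, 3.91 and 7.48. A pair of peaks in the 18S had 2.49 and 2.5 in WT and 5.22 and 5.23 in *rtt109Δ* in copy 1 (windows 456901 to 457000 and 457451 to 457550). In *rtt109Δ* these 18S peaks were 2.09-fold above WT, again less than the median of the precursor, as were other rDNA windows with much RNAPII in WT. The lowest ratio of the precursor was in the 25S in every track: WT had 0.262, *rrp6Δ* 0.25 and *rtt109Δ* 0.736 in copy 1 (window 453151 to 453250), and 0.258, 0.238 and 0.724 in copy 2 (462251 to 462350).

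The windows of the precursor with the largest and smallest excess also matched between copies in part. In *rtt109Δ* the highest log2 ratio was 1.89 in copy 1 (454451 to 454550, from 0.737 in WT to 2.74) and 1.82 in copy 2 (463551 to 463650, from 0.579 to 2.05), both in the 25S. The lowest of copy 2 was 0.87, in the 18S near its 5′ end (466751 to 466850, from 1.57 to 2.86). In *rrp6Δ* the precursor ran from -0.42 (454301 to 454400, from 0.604 to 0.450) to 0.49 (454851 to 454950, from 0.628 to 0.881) in copy 1, and from -0.38 (463451 to 463550) to 0.48 (464001 to 464100) in copy 2.

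The NTS1 spacer is complete only between RDN5-1 and RDN37-2 (459797 to 460711, 19 windows). The other 11 windows counted under NTS1 are the stretches at the 2 ends of the map, given to it by position alone. In the complete spacer WT had a mean ratio of 1.21, *rrp6Δ* 1.32 and *rtt109Δ* 3.50 (percentiles 64.5, 68.9 and 98.6 of all windows). Compared with WT, *rtt109Δ* had a median log2 ratio there of 1.56, from 1.34 to 1.98, and all 19 windows were more than 2-fold above WT. The window of largest excess, 460051 to 460150, had 0.429, 0.369 and 1.70 in WT, *rrp6Δ* and *rtt109Δ*. That of smallest excess, 460651 to 460750, is on the flank of the 35S end peak and had 5.48, 5.86 and 13.8. In *rrp6Δ* the complete spacer had a median of 0.06 but the widest spread of any complete element, from -0.58 (460001 to 460100, from 0.479 to 0.319) to 0.62 (459901 to 460000, from 1.26 to 1.93). The values over all 30 windows mix the complete spacer with 9 windows before RDN37-1 whose median log2 ratio in *rtt109Δ* was only 0.20. Over these 30 windows WT averaged 1.47, *rrp6Δ* 1.54 and *rtt109Δ* 3.27. The median log2 ratio was 1.46 in *rtt109Δ* and 0.05 in *rrp6Δ*. Of them 24 (80%) in *rtt109Δ* and 3 (10%) in *rrp6Δ* lay more than 1.3-fold above WT, against 17.5% and 11% of all windows.

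The NTS2 spacer, upstream of the 35S start (458433 to 459675 and 467570 to 468812), averaged 1.01 for WT, 1.21 for *rrp6Δ* and 2.93 for *rtt109Δ* (percentiles 50.7, 63.0 and 97.6). In *rtt109Δ* its median log2 ratio was 1.54, or 2.91-fold, with all 50 windows more than 2-fold above WT, from 1.13 to 1.92. It was the element with the largest share of windows above WT in *rrp6Δ*: 16 of 50 (32.0%) passed 1.3-fold, 8 in each copy, against 11% of all windows. By that limit 0 lay below, against 13.8% of all windows. Neighbouring windows overlap, so the counts stand for fewer separate positions. The NTS2 median log2 ratio in *rrp6Δ* was 0.31, or 1.24-fold, 0.24 above that of the 35S precursor, with 0.32 in copy 1 and 0.31 in copy 2. The windows of NTS2 ran from -0.18 to 0.58 in *rrp6Δ*, so they overlapped those of the precursor, and the copies are not independent measurements of it. In *rtt109Δ* NTS2 stood 0.14 and the complete NTS1 0.16 above the precursor.

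NTS2 had a regular pattern of 5 maxima with a ratio above 1 in each copy in WT. In copy 1 they were centred 68, 318, 618, 868 and 1168 bp upstream of the 35S start and had ratios of 1.59, 1.06, 1.59, 1.39 and 1.74. In *rrp6Δ* the maxima of copy 1 were at the same places, except the first, at 118 bp, and had 1.65, 1.46, 2.36, 1.77 and 2.06. The *rtt109Δ* track of copy 1 had 5.88 at 118 bp, 3.46 at 318 bp, 4.54 at 618 bp, 3.11 at 818 bp and 5.24 at 1168 bp, plus a smaller maximum of 1.91 at 468 bp. Copy 2 differed in part. There *rtt109Δ* had 5 maxima, without the smaller one, and *rrp6Δ* had 6, with an added one of 1.42 at 1031 bp. The second WT maximum was 1.62 in copy 2. The window of largest excess in *rtt109Δ* was 458501 to 458600 in copy 1, centred 118 bp upstream of the 35S start, where WT had 1.58, *rrp6Δ* 1.65 and *rtt109Δ* 5.88. In copy 2 the matching window, 467651 to 467750, had 1.52, 1.61 and 5.77. Of the 5 maxima, the first was thus the nearest to WT in *rrp6Δ* and the furthest above WT in *rtt109Δ*. The largest *rrp6Δ* excess in copy 2 was in the window 468101 to 468200, beside the middle maximum, from 1.31 to 1.95, and in copy 1 in the window 459601 to 459700, from 0.603 to 0.904.

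**Figure D4:**
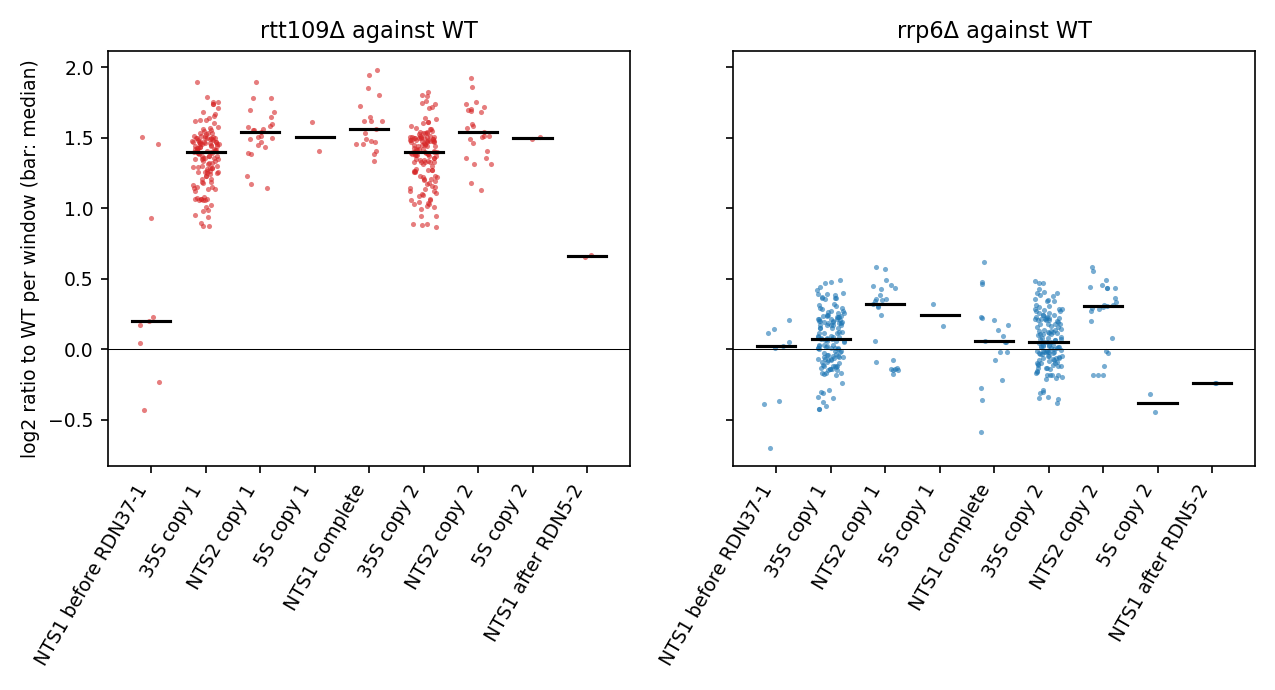
Log2 ratio to WT of every rDNA window, by element in map order, for *rtt109Δ* (left) and *rrp6Δ* (right), 1 point per window with a bar at the median. In *rtt109Δ* the complete elements have medians between 1.40 and 1.56 and the NTS1 stretches at the ends 0.20 and 0.66, while in *rrp6Δ* the NTS2 medians of 0.32 and 0.31 are the highest.

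The 5S genes, transcribed by RNA polymerase III, are short, and only 4 windows had their centres in them. RDN5-1 (459676 to 459796) averaged 0.815 for WT, 0.992 for *rrp6Δ* and 2.4 for *rtt109Δ*. RDN5-2 (468813 to 468931) averaged 0.456, 0.349 and 1.29. Both lay above WT in *rtt109Δ*, by a log2 ratio of 1.56 and 1.5, but in *rrp6Δ* RDN5-1 had 0.28 and RDN5-2 had -0.38. RDN5-2 lies at the right end of the map and is 2 bp shorter than RDN5-1 (119 against 121 bp), and only 1 of the 4 windows passed 1.3-fold below WT. The remaining annotated 5S genes, RDN5-3 to RDN5-6, lie further along chromosome XII and had log2 ratios of 1.34, 1.64, 1.78 and 1.39 in *rtt109Δ*. In *rrp6Δ* they had -0.43, -0.23, -0.12 and 0.05. Reads of near-identical genes cannot be assigned to one of them with certainty.

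Of the ORFs annotated inside the repeats, TAR1 (YLR154W-C, 454696 to 455070), a small mitochondrial protein gene that lies antisense within the 25S, had 0.591, 0.601 and 1.72 in WT, *rrp6Δ* and *rtt109Δ* over 8 windows, a log2 ratio of 1.54 in *rtt109Δ* and 0.02 in *rrp6Δ*. The 25S as a whole had 1.48, and the assay does not distinguish strands. YLR154C-G (462522 to 462671), also within a 25S, had 0.494, 0.448 and 1.37 over 3 windows. YLR154C-H (468827 to 468958), which overlaps RDN5-2, had 0.561, 0.450 and 1.26 over 3 windows.

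The excess in *rtt109Δ* stepped down at both limits of the repeats, and a smaller excess was present further out. On the left, the 6 windows that start between 451001 and 451351, before RDN37-1, had log2 ratios of 0.17, -0.43, -0.23, 0.23, 0.04 and 0.20, followed by 0.93, 1.51 and 1.45 in the next 3. Their WT ratios were between 1.45 and 3.35, and those of *rtt109Δ* between 1.52 and 3.45. The same distance from the 35S end in copy 2 had a median log2 ratio of 1.62, against 0.20 for the 9 windows here. On the right, the windows of RDN5-2 had 1.5 and 1.49 and the next 2 windows had 0.66 and 0.67. In *rrp6Δ* the 9 windows on the left had a median of 0.02, and the lowest of them, from 451401 to 451500, had -0.70 (0.615 in WT and 0.379 in *rrp6Δ*).

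Beyond the repeats, the sequence nearest to them also lay above WT in *rtt109Δ*, by less. The median log2 ratio was 0.71 over the 5 kb before the rDNA windows and 0.17 over the 5 kb before that, and 0.70 over the 5 kb after, 0.33 over the next 5 kb, 0.62 from 10 to 20 kb after and 0.02 from 20 to 30 kb after. The stretches after the rDNA windows still hold 5S genes. RDN5-3 lies in the first 5 kb, RDN5-4 and RDN5-5 from 10 to 20 kb after and RDN5-6 from 20 to 30 kb after. Chromosome XII outside the rDNA windows had 0.09. In *rrp6Δ* the 5 kb before had -0.13 and the 5 kb after had -0.19. The ORFs on either side followed this: RNH203 (YLR154C), a subunit of ribonuclease H2, had 0.861 in WT and 1.17 in *rtt109Δ*, and ACS2 (YLR153C), an acetyl-CoA synthetase, had 0.647 and 1.32. ASP3-1 (YLR155C), an asparaginase gene after the repeats, had 0.636 and 1.13.

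**Figure D5:**
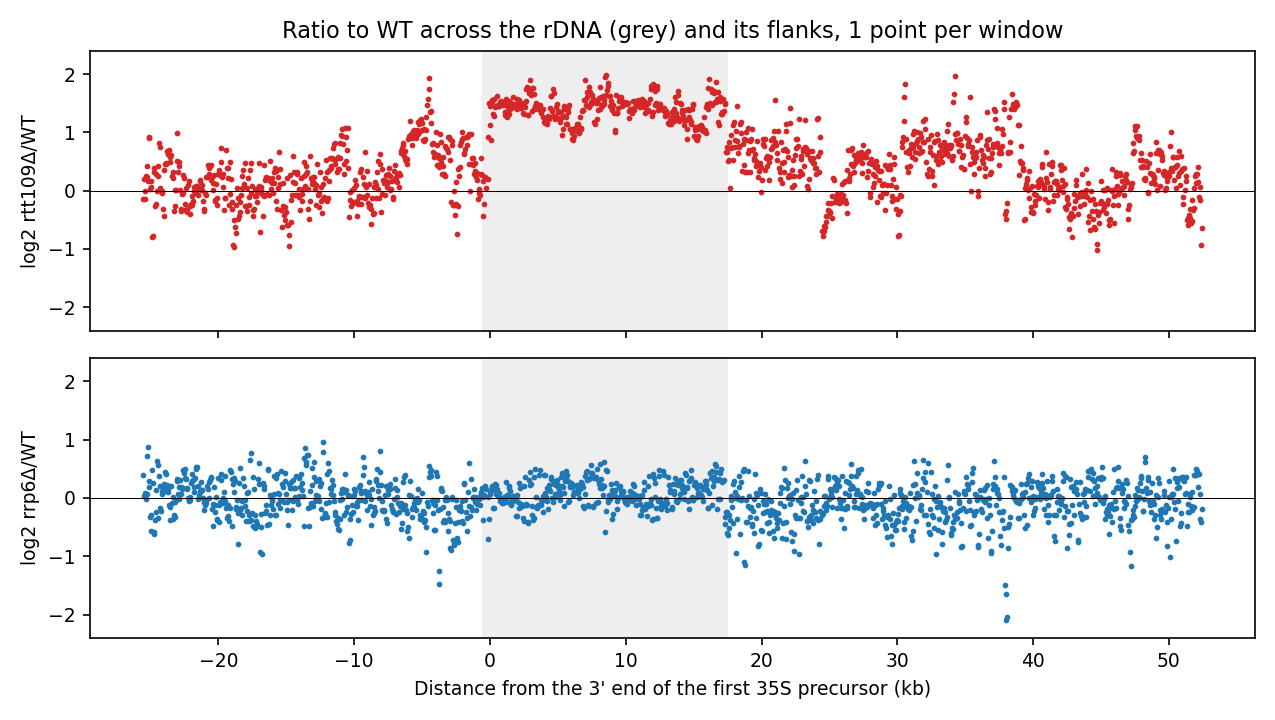
Log2 ratio to WT per window for *rtt109Δ* (top) and *rrp6Δ* (bottom) against distance from the 3′ end of the first 35S precursor in kb, with the rDNA windows shaded grey. The *rtt109Δ* points form a narrow band around 1.42 over the rDNA and step down to medians of 0.71 and 0.70 in the 5 kb on either side, while the *rrp6Δ* points are centred near 0 throughout.

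The shape of the RNAPII profile along the repeats was nearly the same in the 3 tracks. Over the 347 windows without the ends, the log2 profile of *rtt109Δ* correlated with that of WT with a Pearson r of 0.96, and that of *rrp6Δ* with 0.97, against 0.84 and 0.92 over all other windows. The windows overlap and share 1 input, so these values describe the profiles only. The log2 ratios of *rtt109Δ* to WT had an SD over windows of 0.214 in the rDNA and 0.436 elsewhere. Read depth in the rDNA and elsewhere is unknown, so these spreads and correlations cannot be compared at equal counting error. The 2 annotated copies gave close profiles, with a Pearson r of 0.98 between the 137 windows of the 35S units in WT, *rrp6Δ* and *rtt109Δ* alike, and of 0.86, 0.85 and 0.86 between the 25 windows of NTS2. The windows of the copies are offset by 13 bp, and reads of the same array may fall on either copy, so the second copy is no replicate of the first.

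The protein genes that serve the rDNA did not share its excess. Among 18 genes for RNA polymerase I subunits and factors, 1 lay more than 1.3-fold above WT in *rtt109Δ* and 1 below, and 0 and 1 in *rrp6Δ*, with medians of 0.03 and -0.03. Of all 5781 ORFs, 8.74% lay above and 9.53% below in *rtt109Δ*, and 0.709% and 1.82% in *rrp6Δ*, with medians of -0.05 and 0.01. RPA135, the second largest subunit of RNA polymerase I, went from 0.936 in WT to 1.26 in *rtt109Δ*, and RRN9, of the upstream activation factor, from 1.16 to 0.853. In *rrp6Δ* RRN5, of the same factor, went from 0.431 to 0.240, the lowest ratio of *rrp6Δ* to WT in the list, and HMO1, a high mobility group protein of the 35S genes, from 0.648 to 0.779. Among 11 genes of rDNA silencing, fork barrier and anchoring, 1 lay above WT and 2 below in *rtt109Δ*, with a median of -0.20, and 0 passed the limit in *rrp6Δ*. NET1, which tethers the silencing complex to the rDNA, went from 0.745 to 1.05 in *rtt109Δ*, and NUR1, which anchors the array at the nuclear envelope, from 1.66 to 1.09. Their counterparts in *rrp6Δ* were RIF1, a telomere binding protein, at 0.11, and TOF2, a fork barrier protein, at -0.16 on the log2 scale. Among 10 genes of 5S transcription, 1 lay above and 2 below in *rtt109Δ*, with a median of -0.19, and 0 in *rrp6Δ*. TFC3, a subunit of the factor TFIIIC, went from 1.3 to 1.87 and PZF1, the 5S-specific factor TFIIIA, from 1.39 to 1.04 in *rtt109Δ*. In *rrp6Δ* BRF1 had a log2 ratio of 0.31 and BDP1 one of -0.11, both of the factor TFIIIB.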

How the data were processed

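RNAPII ChIP-seq of WT, *rtt109Δ* and *rrp6Δ* yeast was analysed from the tracks the authors deposited, which hold the IP/input ratio per 100-bp window every 50 bp, with the IP libraries of a genotype already combined. The submitters' processing notes name sacCer3, FastQC, Bowtie2, SAMtools, deepTools and bedtools, without versions, and the study's methods name MACS2 or an earlier published procedure. How reads that align to several repeats were handled, and how libraries were combined and scaled, is not given in the sources used here. Depth is unknown. Chromosome IX was not analysed here.

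Each window was given to the element holding its centre, by the R64 annotation of RefSeq. Levels are means of the ratio, and differences are medians over windows of the log2 ratio of mutant to WT, without a pseudocount; windows at 0 in either track were left out. The limit of 1.3-fold is that of the study. ORF values are means over windows. Named are the elements, the ORFs inside and nearest to them, and ACS2 as a further neighbour. Also named are the windows of highest and lowest log2 ratio in each element, and the largest rise and fall in each of 3 gene lists. Elements and lists were chosen with earlier results of these data known. Alternatives were another scaling, log2 of mean ratios, windows wholly inside an element, each copy alone, a pseudocount of 0.5, subtraction of the tenth percentile, a WT minimum of 0.25, and limits of 1.5-fold and 2-fold. The tools were pandas 2.3.3, numpy 2.4.6 and scipy 1.17.1 under Python 3.11.15, with matplotlib 3.10.9 for plots, and the scripts were tested on simulated data.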

Additional observations from a re-analysis of the deposited data

How the results depend on the processing

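No paired analysis was possible because the deposited tracks already combine the libraries of each genotype, and for the same reason no library could be left out. Of 120 alternative values, 45 were log2 medians of *rtt109Δ* and 45 of *rrp6Δ*, and the others, counts and mean levels, cannot change sign. Among these medians 3 changed sign, each for the 5S genes in *rrp6Δ*, whose median of -0.08 became 0.08 with the log2 of mean ratios, 0.25 for copy 1 alone and 0.61 with background subtraction. In size, 14 of the 45 in *rtt109Δ* and 5 of the 45 in *rrp6Δ* left the 95% order-statistic interval of the main median over every second window. For the 5S genes the range of windows was used instead. The log2 ratio of *rtt109Δ* over WT stayed above 0 in all 45 recomputed element medians and above 1.3-fold in 44. The exception was NTS1 from copy 1 alone, the stretch before RDN37-1, with 0.20. In *rrp6Δ* 3 of the 45 lay more than 1.3-fold above WT, those of 35S, 5S and NTS2 with background subtraction. The 5S median of *rrp6Δ* from copy 2 alone was -0.38. No 5S window lies wholly inside a 5S gene, so that alternative gave no value there. Dividing by the median of chromosome XII outside the rDNA shifted *rtt109Δ* by -0.11, to 1.29 for the 35S precursor, 1.39 for the 5S genes and 1.43 for NTS2. For the 35S precursor, dividing by the mean of all windows gave 1.49, dividing by the median ORF gave 1.45, and the log2 of mean ratios gave 1.29 and, in *rrp6Δ*, 0.12. A pseudocount of 0.5, which shrinks low ratios, gave 0.94 for the 35S precursor, 0.90 for the 5S genes and 1.13 for NTS2. Subtracting the tenth percentile of each track gave 2.52, 2.23, 1.97 and 2.4 for 35S, 5S, NTS1 and NTS2 in *rtt109Δ*. In *rrp6Δ* it gave 0.46, 0.61, 0.19 and 0.60 in the same order. Windows at or below that percentile dropped out, however. This left 209 of 274 windows for the 35S precursor in *rtt109Δ* and 203 in *rrp6Δ*, and 1 for the 5S genes in each. In *rrp6Δ* the 36 windows above WT became 1 at 1.5-fold and 0 at 2-fold, and the 8 below became 1 and 0. Leaving out the NTS1 ends or the windows near the 35S 3′ end, alternatives chosen after seeing the data, changed no direction. The unknown depth leaves the counting error of every window unknown.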
